A study of Zea mays with 18 samples.

Results

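The interaction of genotype with water stress is the part of the water stress response that differs between strigolactone-deficient *zmccd8* roots and wild-type (WT) roots of maize. For each gene it was taken as the change under water stress (WS) against control (CT) in *zmccd8* minus the same change in WT, on the scale of log2(FPKM + 1), where FPKM is the number of sequenced fragments of a gene scaled to its length and to the size of the library. A positive value means that the response was higher in *zmccd8*, and a negative value that it was lower. Genes with an FPKM of 1 or more in at least 3 of the 18 libraries of the series were tested, which kept 27530 of 55661 features. Of these, 731 features reached that level in exactly 3 libraries (median of their mean levels 0.584 FPKM), and another 936 features reached it in exactly 2 libraries and stayed out (0.471 FPKM). The genes were then described as 57 gene families taken from the protein names and domains in the deposited annotation, and as 508 protein domain families (Pfam) with at least 10 tested genes.

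The 12 libraries used here are *zmccd8* under WS, *zmccd8* under CT, WT under WS and WT under CT, with 3 libraries each. The *zmccd8* plants belong to 1 line of the inbred B73 whose *ZmCCD8* gene is broken by a *Ds* transposon (*zmccd8::Ds*), and B73 itself is the WT. Water-stressed pots of vermiculite were given full Hoagland solution when the seedlings were transplanted and no irrigation after that, while control pots received the solution throughout. Messenger RNA came from whole roots after 4 weeks. Each biological replicate is a pool of the roots of several plants. In such bulk samples fewer cells of a type and less RNA per cell cannot be told apart.

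Strigolactones are hormones made from carotenoids. The cleavage enzymes CCD7 and CCD8 make their precursor, cytochromes of the MAX1 type oxidise it, and the receptor D14 binds the product. Roots that dry out accumulate abscisic acid (ABA), which acts through receptors, type 2C protein phosphatases and bZIP factors on protective genes such as late embryogenesis abundant (LEA) proteins, while sugars are moved and stored, water channels are adjusted and cell expansion slows.

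The rebuilt read totals of the 12 libraries lay between 30104083 and 43429912. The first principal component (68.6% of the variance) separated WS from CT libraries and the second (8.42%) separated *zmccd8* from WT. The tissue label was met by root genes: the 47 Casparian strip membrane protein genes summed to 234 to 285 FPKM in *zmccd8* WS, 659 to 707 in *zmccd8* CT, 273 to 284 in WT WS and 558 to 799 in WT CT. Of the leaf genes, the small subunit of Rubisco (2 genes) summed to at most 0.315 FPKM in *zmccd8* WS and 1.06 in *zmccd8* CT. In WT its sum was at most 1.85 under WS and 8 under CT. Other genes of the leaf list were not low. Phosphoenolpyruvate carboxylase (13 genes) summed to 390 to 454 FPKM in *zmccd8* WS and 265 to 350 in *zmccd8* CT. In WT it summed to 348 to 397 under WS and 200 to 292 under CT. Pyruvate phosphate dikinase (5 genes) lay between 19.0 FPKM in WT WS and 53.9 in WT CT.

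*ZmCCD8* itself (Zm00001eb153000, chromosome 3, 202178668 to 202182189 in the B73 NAM 5.0 assembly) still gave reads in the mutant, so its level does not show whether the insertion is present. It had 27.4, 24.2 and 18.1 FPKM in *zmccd8* WS, 16.6, 5.63 and 8.22 in *zmccd8* CT, 10.7, 9.22 and 8.85 in WT WS, and 5.803, 8.76 and 4.17 in WT CT. Under WS every *zmccd8* library was above every WT library, and under CT the genotypes overlapped. Its interaction was 0.63 ± 0.45 (SE, n = 3 libraries a group), with an adjusted p of 0.762 in limma.

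Water stress moved a large part of the root transcriptome in both genotypes. A gene was called where limma gave an adjusted p no higher than 0.05 and the log2 difference was at least 1 in size. This called 4627 genes in *zmccd8* (16.8%; 1721 higher and 2906 lower under WS) and 5082 in WT (18.5%; 2122 higher and 2960 lower). Of these 3589 were called in both genotypes, and 0 of them in opposite directions. The median absolute response was 0.385 in *zmccd8* and 0.445 in WT, and the median absolute interaction was 0.221, against a median SE of the interaction of 0.272.

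**Figure D1:**
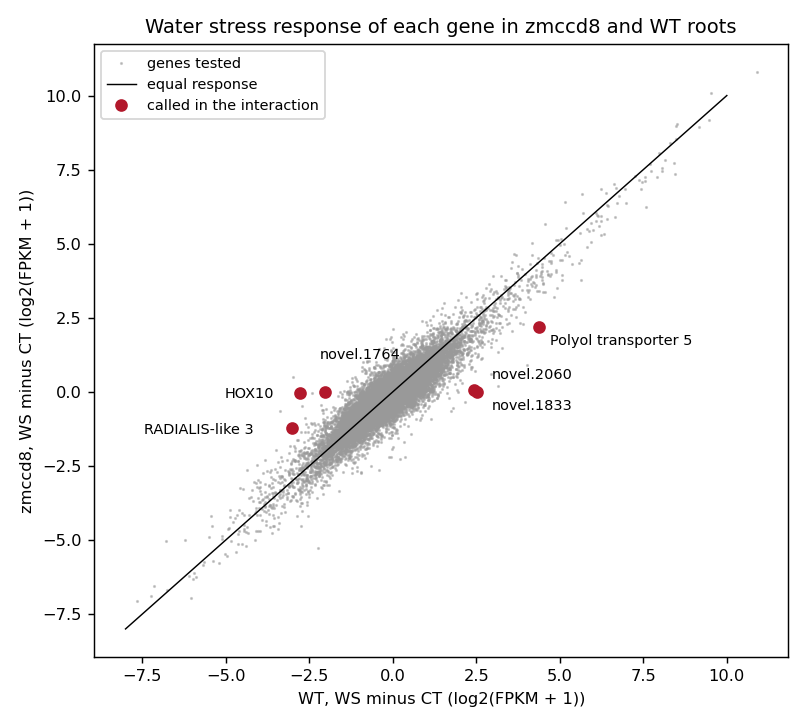
Water stress response (WS minus CT, log2(FPKM + 1)) of the 27530 genes tested, *zmccd8* on the vertical axis and WT on the horizontal axis. Each grey point is a gene, the line marks equal responses and the red points are the 6 genes called in the interaction. Most genes lie along the line, while HOX10 and 3 assembled transcripts among the called genes lie near 0 on the *zmccd8* axis.

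By the same rule 6 genes were called in the interaction (0.0218% of the genes tested), 3 higher (0.0109%) and 3 lower (0.0109%) in *zmccd8*. At an unadjusted p under 0.05 there were 2185 genes (7.94%), 957 of them higher (3.48%) and 1228 lower (4.46%). The called genes were a polyol transporter, the homeobox gene HOX10, a RADIALIS-like MYB gene and 3 transcripts assembled by the authors with no protein name. Of the 6, 4 lie on chromosome 3, the chromosome of *ZmCCD8*, and had no or almost no reads in *zmccd8* under either condition. These 4 passed the filter on low values without the *zmccd8* libraries, and their interaction is the WT response with its sign turned, or nearly so. With the replicate number as a block, 2 of the 6 were called.

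Polyol transporter 5 (Zm00001eb021140, chromosome 1, 80153391 to 80155385) belongs to the membrane carriers that move sugar alcohols and monosaccharides. It had 18.6, 14.7 and 14.2 FPKM in *zmccd8* WS, 2.83, 2.99 and 2.20 in *zmccd8* CT, 39.1, 49.4 and 62.2 in WT WS, and 1.55, 1.83 and 0.927 in WT CT. Within WS all *zmccd8* libraries were below all WT libraries, and within CT all were above. It rose in both genotypes, by 2.19 in *zmccd8* and by 4.39 in WT, and the interaction was −2.19 ± 0.28 (SE, n = 3; adjusted p = 0.0298, limma). This call was kept in 3 of the 12 fits that left out 1 library (without WT WS replicate 1, WT CT replicate 2 or WT CT replicate 3) and lost in the others, and the adjusted p was 0.086 with the replicate block and ran from 0.00224 to 0.486 over all alternatives.

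HOX10 (Zm00001eb145820, chromosome 3, 176802728 to 176805378) is annotated with the name of a rice homeobox-leucine zipper transcription factor. The annotation gives this gene no protein domain. It was at 0 in all *zmccd8* libraries but 1 CT library (0.0624 FPKM), while WT had 6.32, 3.34 and 5.76 FPKM under WS and 37.1, 46.7 and 36.9 under CT. The response was −0.03 in *zmccd8*, where the gene was at or near 0, and −2.77 in WT, and the interaction was 2.75 ± 0.27 (adjusted p = 0.00434, limma). RADIALIS-like 3 (Zm00001eb398500, chromosome 9, 148342953 to 148343743), a small MYB-type gene, had 0.277, 0.162 and 0.294 FPKM in *zmccd8* WS, 1.58, 2.26 and 1.93 in *zmccd8* CT, 0, 0.132 and 0 in WT WS, and 7.15, 9.04 and 6.33 in WT CT. It fell in both genotypes, by 1.23 in *zmccd8* and by 3.02 in WT, and every *zmccd8* library was above every WT library under WS and below under CT. The interaction was 1.79 ± 0.23 (adjusted p = 0.0308, limma). The call of RADIALIS-like 3 was kept in 1 of the 12 fits without 1 library (WT CT replicate 3) and lost in the others, and its adjusted p was 0.086 with the replicate block and ran from 0.0145 to 0.501 over all alternatives, while HOX10 was called in all 12 and at 0.0253 with the block.

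Of the assembled transcripts, the one nearest to *ZmCCD8* (chromosome 3, 200027624 to 200030161, 2.15 Mb away) had 5.41, 4.11 and 6.16 FPKM in WT WS and 0.0332, 0.0718 and 0.108 in WT CT. The second (chromosome 3, 185090935 to 185093947, minus strand) had 0.0476, 0.0335 and 0.0578 FPKM in *zmccd8* WS and 0 in *zmccd8* CT, against 4.58, 2.99 and 6.47 in WT WS and 0, 0.0896 and 0 in WT CT. The third (chromosome 3, 144676762 to 144677508) had 0.0795, 0.0693 and 0.243 FPKM in WT WS and 4.85, 2.31 and 4.04 in WT CT. The first and the third were at 0 in all 6 *zmccd8* libraries, so that their interactions (−2.53 ± 0.22 and 2.03 ± 0.28, adjusted p = 0.00203 and 0.043, limma) are the WT response with its sign turned. The interaction of the second was −2.35 ± 0.28 (adjusted p = 0.0231, limma), and this transcript begins where the protein phosphatase 2C gene Zm00001eb148130 on the same strand ends. With 1 library left out, the call was kept in 12 of 12 fits for the first, in 3 for the second (without WT WS replicate 2, WT WS replicate 3 or WT CT replicate 2) and in 1 for the third (without WT CT replicate 2). With the replicate block their adjusted p was 0.0136, 0.0767 and 0.096.

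**Figure D2:**
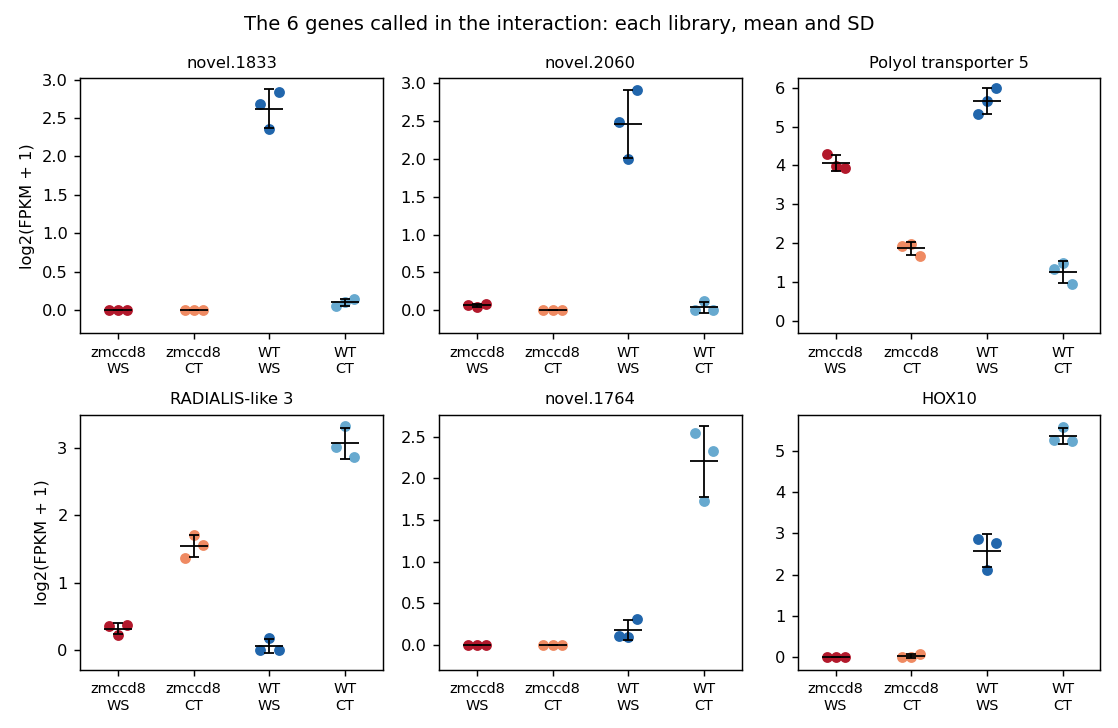
Level of the 6 called genes in each of the 12 libraries, as log2(FPKM + 1), with the mean and SD of 3 libraries in black and a scale of its own for each gene. In HOX10 and the 3 assembled transcripts the *zmccd8* points lie at or near 0 and only WT changes, whereas polyol transporter 5 and RADIALIS-like 3 change in both genotypes.

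HOX10 and the assembled transcript nearest to *ZmCCD8* were called when any 1 of the 12 libraries was left out. Both were at or near 0 in every *zmccd8* library, so leaving out 1 of those libraries could hardly change their interaction. With 1 library left out, the count of calls ran from 2 (without WS replicate 2, CT replicate 1 or CT replicate 3 of *zmccd8*) to 7 (without WT CT replicate 2). A count of 0 was reached with a pseudocount of 0.1 (2125 genes at an unadjusted p under 0.05), with limma voom on the rebuilt reads (1941) and with chromosome 3 left out before the adjustment (1852).

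Chromosome 3 held 2975 of the tested genes (10.8%), and 133 of the 565 genes with an unadjusted p of 0.01 or less. At an unadjusted p under 0.05 there were 11.1% of its genes and 7.55% of the genes of other chromosomes, and 13.7% of the 1561 genes within 50 Mb of *ZmCCD8*. Over all chromosomes 162 tested genes stayed under 0.5 FPKM in all 6 *zmccd8* libraries and 212 in all 6 WT libraries, so that at most 1 genotype had such a gene above that level. The insertion and DNA linked to it cannot be told apart in 1 mutant line.

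The 10 lowest and the 10 highest interactions at an unadjusted p of 0.01 or less, which include 5 of the 6 called genes, ran from −3.02 to −1.95 and from 1.86 to 2.75. The lowest was Zm00001eb305230, a gene with no protein name on chromosome 7, with 1.32, 1.31 and 0.635 FPKM in *zmccd8* WS, 28.7, 175.5 and 93.0 in *zmccd8* CT, 1.14, 4.12 and 0.933 in WT WS, and 11.2, 15.7 and 10.03 in WT CT (adjusted p = 0.33, limma). The next, the cationic peroxidase SPC4 (Zm00001eb140290, chromosome 3), had 2.05, 1.35 and 6.10 FPKM in *zmccd8* WS, 3.105, 1.55 and 2.14 in *zmccd8* CT, 9.73, 7.35 and 13.6 in WT WS, and 0.305, 0.264 and 0.106 in WT CT. Every WT library lay above every *zmccd8* library under WS and below under CT, and the interaction was −2.95 ± 0.50 (adjusted p = 0.113, limma). A germin-like protein (Zm00001eb088410), of a family of cell wall oxidases, had 79.6, 132.2 and 156.7 FPKM in *zmccd8* WS, 109.5, 124.4 and 119.1 in *zmccd8* CT, 268.1, 191.0 and 603.6 in WT WS, and 99.4, 100.5 and 51.0 in WT CT. The genotypes did not overlap in either condition, and the response was 0.01 in *zmccd8* and 1.96 in WT (adjusted p of the interaction 0.405).

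Among the highest, WRKY71 (Zm00001eb206730), of the WRKY factors that act in defence and hormone signalling, had 27.5, 60.7 and 33.4 FPKM in *zmccd8* WS, 16.1, 9.09 and 7.73 in *zmccd8* CT, 24.3, 44.1 and 18.4 in WT WS, and 25.3, 33.8 and 36.9 in WT CT. The genotypes overlapped under WS, and under CT all *zmccd8* libraries were lower (interaction 1.99 ± 0.50, adjusted p = 0.33, limma). The unnamed Zm00001eb189310 on chromosome 4 was at 3.60, 10.2 and 5.94 FPKM in *zmccd8* WS, 0.552, 1.27 and 1.16 in *zmccd8* CT, 0.346, 0.0302 and 0.0424 in WT WS and 0.237, 0.0746 and 0.220 in WT CT, so that it responded in *zmccd8* and was low in WT throughout (1.91 ± 0.40, adjusted p = 0.204). Zm00001eb344000 on chromosome 8 had 1.94, 6.52 and 1.51 FPKM in *zmccd8* WS and at most 0.646 FPKM in any other library (1.87 ± 0.47). The others among these 20 genes were HB2 and SWEET3a, described with their families, the MYG1 exonuclease gene Zm00001eb143580 (−2.07), the unnamed Zm00001eb143600 (2.72), and 5 further assembled transcripts, at −2.38 and −2.04 and at 2.38, 1.92 and 1.86.

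The median interaction was −0.02 over all genes tested, with 52.5% of the genes below 0, and 40 of the 57 family medians were below 0 and 17 above. The median of 50 families lay within 0.2 of 0, as did that of 436 of the 508 domain families. A member was called in 2 of the 57 families, HOX10 among the homeobox factors and polyol transporter 5 among the sugar transporters. Below, members higher or lower in the interaction are counted at an unadjusted p under 0.05. At that limit 3.48% of all genes were higher and 4.46% lower. Family means per library were also compared with the spread between libraries, taken as the residual SD of the family mean carried through to the difference of differences. For 2 families, the heat stress factors and the cytochromes P450, the mean interaction was over 2 times that spread. The same held for 36 of the 508 domain families (26 below 0 and 10 above), against a ratio of 1.47 for all genes together. How many families would pass this limit without any difference was not computed, so these counts do not show an excess. The medians moved with single libraries: in 56 of the 57 families leaving out 1 library moved the median by over 1.5 times or across 0 (across 0 in 26), the exception being the cytochromes P450. Among the 16 domain families with the lowest and highest medians this held for 11, and 0 of these crossed 0. The other domain families were not checked in this way.

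**Figure D3:**
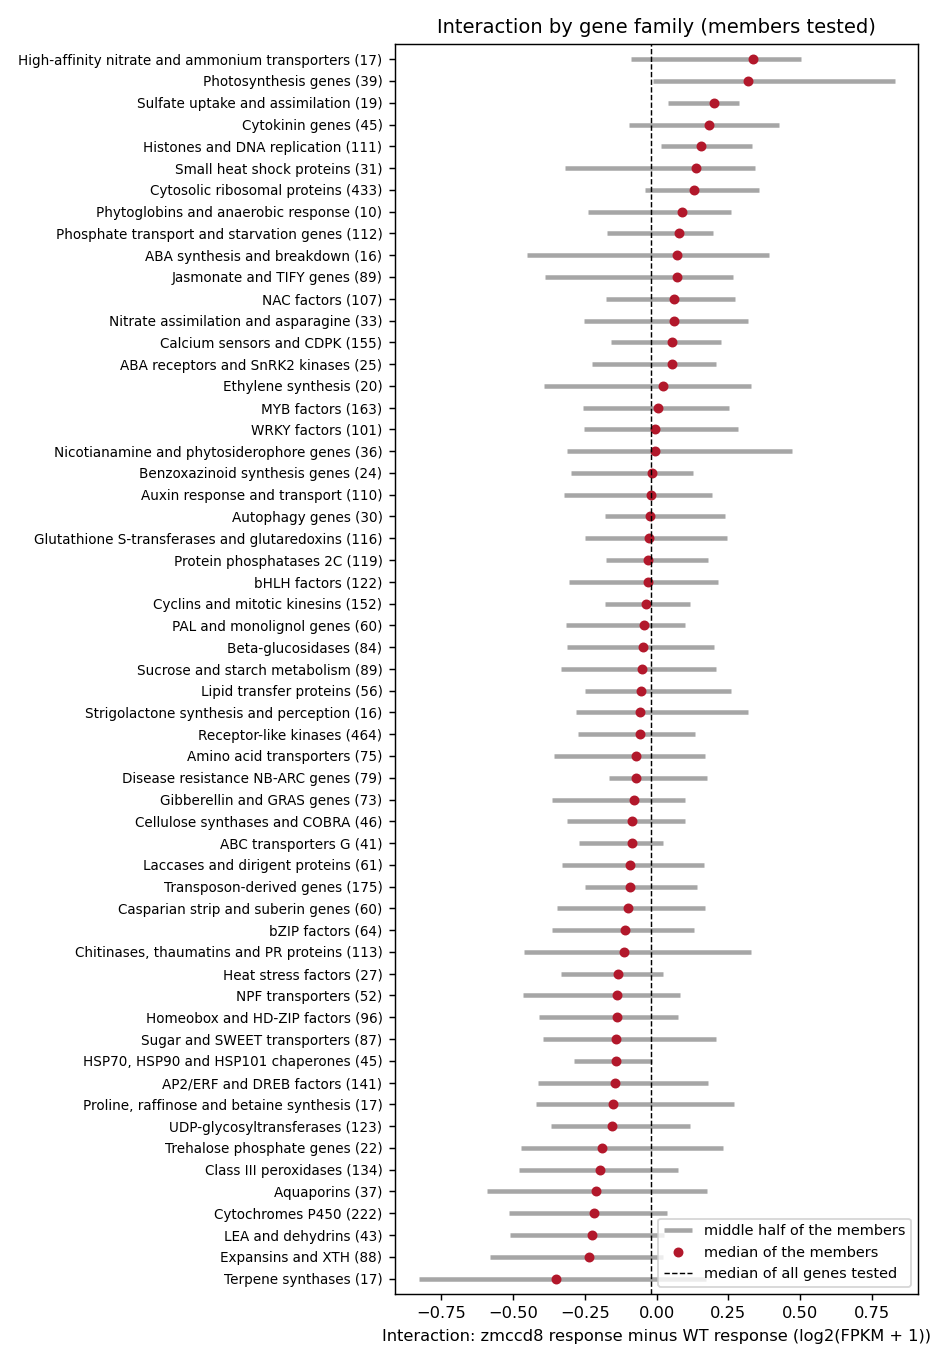
Interaction (*zmccd8* response minus WT response, log2(FPKM + 1)) in the 57 gene families, with the number of members tested in parentheses. Red points are medians, grey bars span the lower to the upper quartile of the members and the dashed line is the median of all genes, −0.02. Terpene synthases (−0.35) and expansins with xyloglucan endotransglucosylases (−0.24) are at the low end, and high-affinity nitrate and ammonium transporters (0.34) and photosynthesis genes (0.32) at the high end, with bars that overlap those of most other families. Without WT CT replicate 3 the terpene synthase median is −0.09.

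LEA proteins and dehydrins protect membranes and proteins in drying cells. Of 43 LEA and dehydrin genes tested (65 in the annotation), 23 were called higher and 7 lower under WS in *zmccd8*, and 23 and 7 in WT, beside 6.25% of all genes called higher in *zmccd8* and 7.71% in WT. Their median response was 1.29 in *zmccd8* and 1.5 in WT. The median interaction was −0.22, 74.4% of the members were below 0, and 2 were higher and 6 lower at an unadjusted p under 0.05. The mean level of the family was 4.37, 4.86 and 4.73 in *zmccd8* WS, 2.65, 2.45 and 2.65 in *zmccd8* CT, 4.80, 4.83 and 4.99 in WT WS, and 2.49, 2.49 and 2.71 in WT CT (log2(FPKM + 1)). The mean interaction of −0.24 was 1.31 times its spread of 0.185. The lowest WS level was that of *zmccd8* replicate 1, and without that library the median interaction was −0.08.

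The family member of smallest p, the dehydrin gene Zm00001eb155620 (chromosome 3), had 2.79, 5.67 and 3.57 FPKM in *zmccd8* WS, 0 in all *zmccd8* CT libraries, 15.8, 12.3 and 22.0 in WT WS, and 0.175, 0.303 and 0 in WT CT (interaction −1.62 ± 0.33, adjusted p = 0.194, limma). The genotypes did not overlap under WS, but limma voom on the rebuilt reads gave an interaction of 0.82, the opposite direction. The abundant dehydrin gene Zm00001eb187010 had 734.0, 932.0 and 718.4 FPKM in *zmccd8* WS, 62.2, 60.5 and 110.3 in *zmccd8* CT, 937.4, 1029 and 968.9 in WT WS, and 32.6, 37.9 and 52.3 in WT CT, lower in every *zmccd8* library under WS and higher in every one under CT (−1.19 ± 0.33). In the opposite direction, the desiccation-related protein PCC13-62 gene Zm00001eb084480 had 4.30, 5.66 and 2.68 FPKM in *zmccd8* WS, 0.09997, 0.322 and 0.325 in *zmccd8* CT, 2.01, 0.917 and 0.668 in WT WS, and 0, 0 and 0.150 in WT CT (1.00 ± 0.36), and here too the direction was the opposite with limma voom (−1.53).

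Heat stress factors, which switch on chaperone genes, had a median response of 0.86 in *zmccd8* and 0.73 in WT over 27 genes. Of these, 10 were called higher in each genotype, beside 6.25% of all genes in *zmccd8* and 7.71% in WT. The median interaction was −0.13 with 74.1% of the genes below 0 (0 higher and 3 lower at an unadjusted p under 0.05), so its sign differed from that of the difference of the medians. The mean level was 3.41, 3.5 and 3.46 in *zmccd8* WS and 3.52, 3.63 and 3.55 in WT WS, without overlap, and overlapped under CT. The factor C-2a (Zm00001eb239380) had 91.6, 111.5 and 89.1 FPKM in *zmccd8* WS, 5.31, 4.12 and 5.41 in *zmccd8* CT, 114.2, 132.3 and 124.1 in WT WS, and 3.105, 4.21 and 2.55 in WT CT (−0.83 ± 0.22). Of 45 HSP70, HSP90 and HSP101 chaperones, 16 rose and 0 fell in *zmccd8*, and 19 rose and 1 fell in WT, beside 6.25% and 7.71% of all genes called higher, and 75.6% of the interactions were below 0 (median −0.14). One HSP70 gene, Zm00001eb029200, had 60.5, 56.2 and 55.9 FPKM in *zmccd8* WS, 34.3, 28.5 and 37.6 in *zmccd8* CT, 91.3, 93.4 and 76.2 in WT WS, and 24.1, 25.1 and 19.8 in WT CT (−1.10 ± 0.19, adjusted p = 0.122, limma). It overlaps another feature on its strand. The heat shock cognate gene Zm00001eb148420 on chromosome 3 had a response of 6.67 in *zmccd8* and 5.67 in WT (interaction 1.00 ± 0.27). The 31 small heat shock proteins had a median interaction of 0.14 with 4 lower and 0 higher.

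The 16 genes of ABA synthesis and breakdown had a median interaction of 0.07 (2 higher, 4 lower at an unadjusted p under 0.05). An assembled transcript on chromosome 4 annotated as ABA 8′-hydroxylase 1, of the enzyme that inactivates ABA, had 44.9, 58.0 and 54.6 FPKM in *zmccd8* WS, 3.005, 3.09 and 2.63 in *zmccd8* CT, 68.0, 56.0 and 85.5 in WT WS, and 1.66, 2.39 and 2.42 in WT CT (−0.71 ± 0.24). The ABA-making dioxygenase Zm00001eb051890 had a response of −0.64 in *zmccd8* and 0.09 in WT (interaction −0.73 ± 0.27), and an assembled transcript of the same annotation had one of 2.02 in *zmccd8* and 1.39 in WT (0.63 ± 0.26). Among 25 ABA receptors and SnRK2 kinases 3 were higher and 0 lower: the receptor PYL4 (Zm00001eb013780, named after its values were seen) had a response of −2.30 in *zmccd8* and −2.96 in WT, and the SAPK4 kinase genes Zm00001eb289200 and Zm00001eb366610 had interactions of 0.52 ± 0.20 and 0.63 ± 0.23.

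Downstream of the receptors, the protein phosphatase 2C 9 gene (Zm00001eb148130) had 26.0, 30.9 and 27.7 FPKM in *zmccd8* WS, 12.9, 12.1 and 12.8 in *zmccd8* CT, 51.8, 52.8 and 52.9 in WT WS, and 9.70, 13.1 and 13.4 in WT CT (−0.95 ± 0.18, adjusted p = 0.147, limma). It lies on chromosome 3 beside the second of the called transcripts. Over all 119 phosphatases 6 were higher and 8 lower, with a median of −0.03. Of 64 bZIP factors, which bind ABA response elements among others, 1 was higher and 9 were lower, beside 3.48% and 4.46% of all genes. Their median was −0.11, and 65.6% were below 0, beside 52.5% of all genes. bZIP46 (Zm00001eb279120) had 6.08, 8.65 and 8.28 FPKM in *zmccd8* WS, 2.79, 3.53 and 3.27 in *zmccd8* CT, 12.6, 10.7 and 13.2 in WT WS, and 1.66, 1.96 and 1.28 in WT CT. The genotypes did not overlap in either condition and their order was opposite (−1.29 ± 0.23, adjusted p = 0.147). An unnamed bZIP gene, Zm00001eb315850, had 8.32, 6.07 and 11.2 FPKM in *zmccd8* WS, 21.2, 21.4 and 19.7 in *zmccd8* CT, 25.2, 27.2 and 31.1 in WT WS, and 29.1, 29.4 and 22.7 in WT CT. Its response was −1.23 in *zmccd8* and 0.04 in WT, an interaction of −1.27 ± 0.25 (adjusted p = 0.189).

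In the other factor families the share of members at an unadjusted p under 0.05 stands beside 7.94% of all genes. The AP2/ERF factors (141 genes) had 7 higher and 12 lower (13.5%, median −0.14) and the homeobox factors (96) 2 and 8 (10.4%, −0.14). The NAC factors (107) had 6 and 4 (9.35%, 0.06) and the MYB factors (163) 6 and 5 (6.75%, 0.00). The bHLH factors (122) had 6 and 5 (9.02%, −0.03) and the WRKY factors (101) 7 and 2 (8.91%, −0.01). ERF110 (Zm00001eb146650, chromosome 3) had 6.46, 7.96 and 6.65 FPKM in *zmccd8* WS, 1.89, 3.37 and 1.79 in *zmccd8* CT, 25.4, 29.2 and 22.2 in WT WS, and 4.41, 4.18 and 2.37 in WT CT (−1.25 ± 0.31, adjusted p = 0.327, limma). In the other direction, the dehydration-responsive DREB1H gene Zm00001eb318890 had an interaction of 1.45 ± 0.44. DREB1A (Zm00001eb318910), named after its values were seen, had an interaction of 1.73 ± 0.56, with 3.91, 9.82 and 5.96 FPKM in *zmccd8* WS, 5.801, 1.36 and 1.72 in *zmccd8* CT, 3.52, 6.97 and 2.89 in WT WS, and 7.31, 7.38 and 7.66 in WT CT, and both genes had the genotypes apart under CT and overlapping under WS. Myb-related protein 2 (Zm00001eb015490), in contrast, had them apart under WS and overlapping under CT, with responses of 0.90 in *zmccd8* and −0.49 in WT (1.39 ± 0.33, adjusted p = 0.278). The column of the deposited table that names a transcription factor family was not used, since the protein name gave the same family for only 9.9% to 35.4% of the genes of each family checked.

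Trehalose phosphate synthases belong to the pathway of the sugar signal trehalose 6-phosphate. Of the 10 tested genes with the synthase domain, 6 were called lower and 0 higher under WS in each genotype. Of all genes 10.6% were called lower in *zmccd8* and 10.8% in WT. The median response of the synthases was −1.71 in *zmccd8* and −1.38 in WT. Their median interaction was −0.50, and 8 of 10 were below 0, beside 52.5% of all genes. At an unadjusted p under 0.05, 4 were lower and 0 higher, beside 4.46% and 3.48% of all genes. The family mean was 3.75, 3.88 and 3.85 in *zmccd8* WS, 5.42, 5.54 and 5.40 in *zmccd8* CT, 4.30, 4.33 and 4.52 in WT WS, and 5.39, 5.73 and 5.51 in WT CT (log2(FPKM + 1)). The genotypes overlapped under CT and were 0.55 apart under WS without overlap. The mean interaction of −0.46 was 3.41 times its spread of 0.13, rank 6 of the 508 domain families. This domain family was described for its low median in these same data, so its rank is not separate support. The lowest adjusted p of a single gene was 0.428, and without the filter on low genes the family median was −0.04.

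Zm00001eb257510 had 17.9, 26.1 and 25.9 FPKM in *zmccd8* WS, 180.3, 215.8 and 176.7 in *zmccd8* CT, 37.1, 44.1 and 59.3 in WT WS, and 165.0, 213.7 and 208.4 in WT CT (−0.94 ± 0.27, adjusted p = 0.428, limma). Zm00001eb192680 (TPS10) had 16.4, 24.3 and 27.01 FPKM in *zmccd8* WS, 135.9, 152.7 and 139.5 in *zmccd8* CT, 41.4, 42.6 and 68.7 in WT WS, and 135.8, 188.5 and 172.4 in WT CT (−0.93 ± 0.31). Zm00001eb178890 (TPS6) had 2.72, 4.75 and 5.43 FPKM in *zmccd8* WS, 39.1, 49.2 and 44.7 in *zmccd8* CT, 8.62, 6.17 and 11.7 in WT WS, and 29.3, 48.6 and 41.0 in WT CT (−1.07 ± 0.36). In all of these the WS libraries of *zmccd8* lay below those of WT and the CT libraries overlapped. They are the synthases of smallest interaction p, so this separation is in part a product of the choice. The other synthases ranged from −0.67 (Zm00001eb042370) to 0.69 (Zm00001eb353280, annotated as synthase 1). With the phosphatases the 22 trehalose phosphate genes had a median of −0.19. The phosphatase gene TRPP1 (Zm00001eb042260), which the study names, had an interaction of 0.04 ± 0.31.

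Transporters of the SWEET family, which let sugars out of cells along their gradient, had interactions in both directions. Of 19 tested genes with the SWEET domain 9 had an unadjusted p under 0.05, 5 of them higher and 4 lower, beside 3.48% and 4.46% of all genes, and the family median was 0.00. This domain family was singled out after its values were seen. SWEET3a (Zm00001eb350590) had 6.33, 11.01 and 4.88 FPKM in *zmccd8* WS, 2.06, 1.999 and 1.71 in *zmccd8* CT, 2.38, 1.61 and 1.34 in WT WS, and 3.14, 4.2 and 1.29 in WT CT (1.88 ± 0.44, adjusted p = 0.274, limma). SWEET3b (Zm00001eb119760) had 11.96, 11.8 and 8.165 FPKM in *zmccd8* WS, 6.15, 6.84 and 4.11 in *zmccd8* CT, 10.8, 7.82 and 7.64 in WT WS, and 10.97, 13.0 and 16.1 in WT CT (1.36 ± 0.30, adjusted p = 0.244). Both had a positive response in *zmccd8* and a negative one in WT. SWEET3b was named after its values were seen, and SWEET3a overlaps 2 other features on its strand.

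On the low side, SWEET2b (Zm00001eb155660, chromosome 3) had 5.67, 7.02 and 4.42 FPKM in *zmccd8* WS, 2.24, 1.54 and 2.16 in *zmccd8* CT, 9.01, 9.63 and 9.29 in WT WS, and 0.986, 1.09 and 0.374 in WT CT. The order of the genotypes was opposite in the 2 conditions, with no overlap in either (−1.37 ± 0.28, adjusted p = 0.194, limma). SWEET12 (Zm00001eb016690), SWEET15 (Zm00001eb241930) and the SWEET13 gene Zm00001eb133100 had interactions of −1.21 ± 0.48, −1.19 ± 0.44 and −1.14 ± 0.41, the last 2 with all *zmccd8* libraries below WT under WS. Another SWEET13 gene, Zm00001eb408900, had an interaction of 0.90 ± 0.28. How reads shared by genes of the same annotation were divided is not given in the sources used here. SWEET2a (Zm00001eb342040) and SWEET14 (Zm00001eb170150) had interactions of 0.67 ± 0.21 and 0.72 ± 0.31. Over the 87 sugar transporters as a whole 7 were higher and 10 lower, with a median of −0.14.

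**Figure D4:**
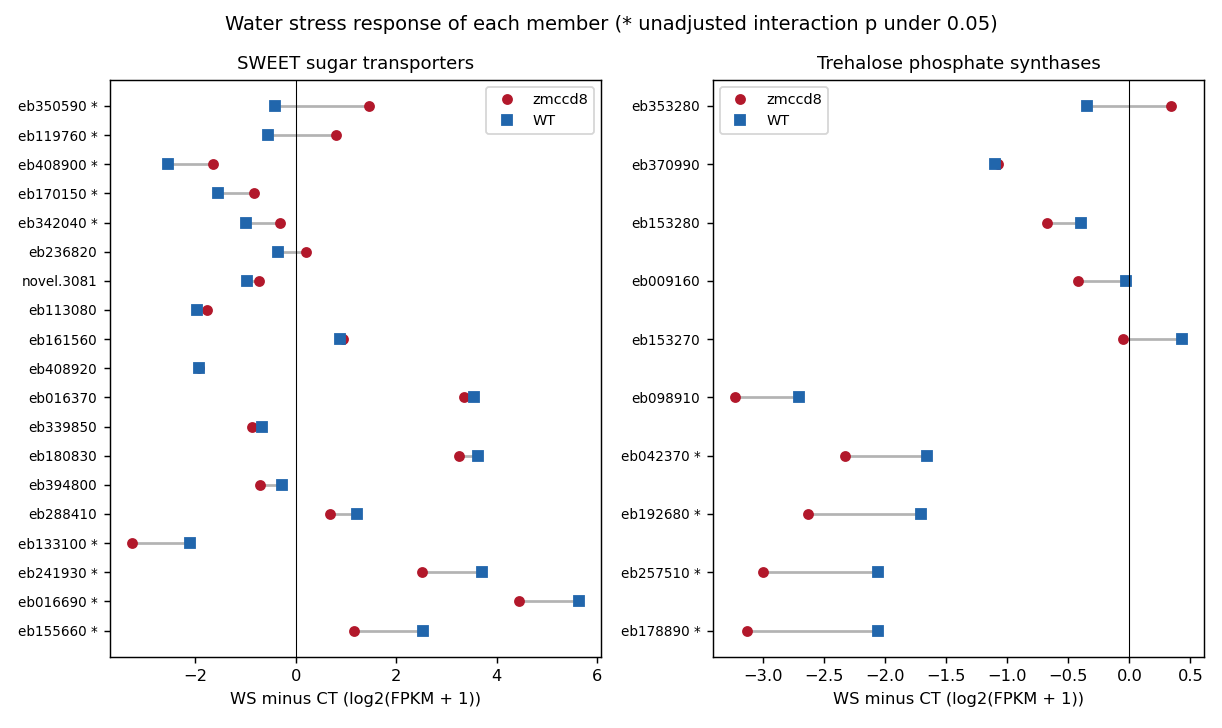
Water stress response (WS minus CT, log2(FPKM + 1)) of the 19 SWEET genes and the 10 trehalose phosphate synthases tested, with red circles for *zmccd8*, blue squares for WT and grey lines for the interaction. Members are ordered by interaction and named by the end of their identifier, with an asterisk at an unadjusted interaction p under 0.05. SWEET genes differ in both directions, and 8 of the 10 synthases have the *zmccd8* value on the left of the WT value.

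In sucrose and starch metabolism 3 of 89 genes were higher and 7 lower (median −0.05). The ADP-glucose pyrophosphorylase gene Zm00001eb296990, of the entry step to starch, had 57.6, 52.5 and 63.0 FPKM in *zmccd8* WS, 3.40, 1.75 and 3.59 in *zmccd8* CT, 111.0, 84.8 and 137.0 in WT WS, and 2.05, 2.39 and 2.31 in WT CT (−1.14 ± 0.29, adjusted p = 0.353, limma). The genotypes were apart under WS. BT2 (Zm00001eb176800), of the same enzyme, had an interaction of −0.55 ± 0.38, and sucrose synthase 1 (Zm00001eb374090) one of −0.69 ± 0.24. BGLU15 (Zm00001eb334460), a beta-glucosidase, had 2.43, 1.65 and 4.81 FPKM in *zmccd8* WS, 0.586, 0.263 and 0.583 in *zmccd8* CT, 10.9, 9.20 and 14.3 in WT WS, and 0.582, 0.476 and 0.135 in WT CT (−1.80 ± 0.38, adjusted p = 0.217). Over the 84 beta-glucosidases the median was −0.05, with 2 higher and 4 lower.

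Water channels let water cross membranes, and 17 of 37 were called lower and 3 higher under WS in each genotype, beside 10.6% of all genes called lower in *zmccd8* and 10.8% in WT. Their median interaction was −0.21, with 1 higher and 3 lower at an unadjusted p under 0.05 (3.48% and 4.46% of all genes). It was −0.42 without *zmccd8* CT replicate 3 and −0.10 without *zmccd8* CT replicate 1. The plasma membrane channel PIP2-1 (Zm00001eb306380) had 85.4, 74.4 and 85.4 FPKM in *zmccd8* WS, 330.2, 274.7 and 254.4 in *zmccd8* CT, 99, 107.3 and 93.1 in WT WS, and 233.8, 260.1 and 217.7 in WT CT (−0.55 ± 0.19, adjusted p = 0.5, limma). PIP2-5 (Zm00001eb077130), named after its values were seen, had an interaction of −0.70 ± 0.28. The tonoplast channel TIP3-2 (Zm00001eb076690) was at 0 under CT in all libraries but 1 and had 6.57, 9.83 and 13.2 FPKM in *zmccd8* WS and 21.5, 16.6 and 27.5 in WT WS (−1.11 ± 0.32), and NIP1-1 (Zm00001eb239170) had 0.320, 0.341 and 0.265 FPKM in *zmccd8* WS, 1.36, 1.23 and 0.813 in *zmccd8* CT, 0.0318, 0.180 and 0.0584 in WT WS, and 2.88, 3.81 and 4.22 in WT CT (1.38 ± 0.24, adjusted p = 0.118).

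Of 88 expansins and xyloglucan endotransglucosylases, which loosen the wall of growing cells, 54 were called lower and 1 higher in *zmccd8* and 43 and 3 in WT, beside 10.6% and 10.8% of all genes called lower. The median interaction was −0.24, and 71.6% were below 0. At an unadjusted p under 0.05, 0 were higher and 8 lower, which is 9.09% beside 7.94% of all genes. The mean interaction of −0.25 was below its spread of 0.32: the family level was 2.95 in *zmccd8* CT replicate 2, against 3.71 and 3.74 in the other *zmccd8* CT libraries, and without replicate 2 the median was −0.52. Expansin-A16 (Zm00001eb388080) had 7.11, 6.30 and 6.43 FPKM in *zmccd8* WS, 18.1, 19.8 and 15.6 in *zmccd8* CT, 7.66, 8.00 and 6.71 in WT WS, and 12.8, 13.2 and 13.7 in WT CT (−0.55 ± 0.17, adjusted p = 0.454, limma). Class III peroxidases, which cross-link wall polymers, had 77 lower and 1 higher of 134 called in *zmccd8*, and 63 and 8 in WT. Of all genes 10.6% and 10.8% were called lower. In the interaction 2 peroxidases were higher and 6 lower at an unadjusted p under 0.05, which is 5.97% beside 7.94% of all genes. The median interaction was −0.20. That median was −0.39 without *zmccd8* CT replicate 2 and −0.04 without *zmccd8* WS replicate 2. Peroxidase 4 (Zm00001eb195200) was at 35.5, 29.3 and 35.8 FPKM in *zmccd8* WS, 69.0, 66.8 and 62.7 in *zmccd8* CT, 31.6, 31.3 and 24.7 in WT WS, and 32.8, 33.3 and 30.3 in WT CT (−0.82 ± 0.18, adjusted p = 0.221), so that only *zmccd8* CT stood above the rest.

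Cytochromes P450 oxidise hormones and secondary compounds. Of 222 members 3 were higher and 25 lower at an unadjusted p under 0.05, beside 3.48% and 4.46% of all genes, the median was −0.22 and 69.8% were below 0. The mean level was 2.71, 2.77 and 2.89 in *zmccd8* WS, 2.95, 2.88 and 2.81 in *zmccd8* CT, 2.81, 2.95 and 2.87 in WT WS, and 2.81, 2.82 and 2.53 in WT CT (log2(FPKM + 1)). The genotypes overlapped in both conditions, and the mean interaction of −0.25 was 2.03 times its spread of 0.12. CYP98A1 (Zm00001eb150550, chromosome 3), a hydroxylase of the phenylpropanoid pathway, had 10.2, 11.8 and 9.93 FPKM in *zmccd8* WS, 7.04, 7.54 and 6.799 in *zmccd8* CT, 26.4, 30.1 and 36.0 in WT WS, and 7.68, 8.45 and 5.97 in WT CT (−1.41 ± 0.21, adjusted p = 0.081). The obtusifoliol demethylase gene Zm00001eb114290 had an interaction of 1.74 ± 0.39 and stayed at or below 0.673 FPKM under WS in both genotypes.

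In the strigolactone pathway, 2 of 16 tested genes were lower and 0 higher, and both were annotated as the receptor D14. Zm00001eb007670 had 10.2, 11.6 and 11.6 FPKM in *zmccd8* WS, 92.8, 135.5 and 90.4 in *zmccd8* CT, 18.8, 28.3 and 24.1 in WT WS, and 77.8, 109.2 and 86.1 in WT CT (−1.23 ± 0.27, adjusted p = 0.236, limma). Zm00001eb400720 had 8.30, 7.29 and 6.51 FPKM in *zmccd8* WS, 19.6, 28.8 and 13.4 in *zmccd8* CT, 12.5, 11.7 and 12.3 in WT WS, and 11.7, 18.9 and 13.0 in WT CT (−1.10 ± 0.33, adjusted p = 0.433). Under WS both were lower in every *zmccd8* library, and under CT the genotypes overlapped. CCD7 (Zm00001eb074640) rose in both genotypes, by 1.71 in *zmccd8* and by 1.33 in WT (interaction 0.38 ± 0.29), and the MAX1-type gene Zm00001eb384100 had an interaction of 0.64 ± 0.31.

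Of 45 cytokinin genes 5 were higher and 0 lower, beside 3.48% and 4.46% of all genes, with a median of 0.18 (0.10 without WT WS replicate 3) and 28.9% below 0. The higher genes included type A response regulators, which are induced by cytokinin and damp its signal. ORR6 (Zm00001eb066570) had 5.81, 7.71 and 5.75 FPKM in *zmccd8* WS, 2.14, 1.86 and 1.77 in *zmccd8* CT, 1.97, 3.54 and 1.27 in WT WS, and 2.497, 1.51 and 2.53 in WT CT (1.34 ± 0.34, adjusted p = 0.335, limma). ORR10 (Zm00001eb405030) had 93.9, 112.1 and 70.1 FPKM in *zmccd8* WS, 19.7, 41.3 and 22.9 in *zmccd8* CT, 47.1, 50.2 and 33.5 in WT WS, and 31.2, 27.6 and 29.6 in WT CT (1.20 ± 0.36). Both were higher in every *zmccd8* library under WS than in WT, and overlapped under CT. The mean interaction of the family, 0.19, was 1.32 times its spread of 0.14.

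Of 89 jasmonate and TIFY genes 4 were higher and 7 lower, beside 3.48% and 4.46% of all genes. Their median was 0.07, and −0.04 without WT CT replicate 1. The Jas motif and TIFY domain sets were singled out after their values were seen. All 16 tested genes with the Jas motif of the JAZ repressors were above 0, beside 47.5% of all genes. So were 22 of 24 with the TIFY domain (median 0.23). Only 2 of the 24 had an unadjusted p under 0.05, and their mean interaction was 0.91 times its spread. TIFY 11b (Zm00001eb006000), named after its values were seen, had 71.5, 145.0 and 86.5 FPKM in *zmccd8* WS, 38.5, 17.3 and 26.4 in *zmccd8* CT, 71.7, 139.1 and 65.7 in WT WS, and 77.8, 45.7 and 48.3 in WT CT (1.21 ± 0.51). Lipoxygenases, which oxidise fatty acids, had the lowest median of the domain families, −0.56 over 12 genes (−0.31 without *zmccd8* CT replicate 1). At an unadjusted p under 0.05, 1 was lower and 0 higher. The 3 members of smallest p were annotated as linoleate 9S-lipoxygenases. The linoleate 9S-lipoxygenase gene Zm00001eb144930 had 28.4, 18.6 and 30.1 FPKM in *zmccd8* WS, 177.7, 58.4 and 143.2 in *zmccd8* CT, 37.7, 32.1 and 43.7 in WT WS, and 92.9, 59.9 and 82.6 in WT CT (−1.12 ± 0.48). The family mean interaction was −0.45 against a spread of 0.31.

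The other low domain families were class I chitinases (−0.51 over 12 genes), family 18 glycosyl hydrolases (−0.37 over 15), an AAA-associated domain (−0.36 over 16), terpene synthases (−0.35 over 16), the fibronectin-like domain of subtilases (−0.34 over 26) and respiratory burst oxidases (−0.34 over 11). Without the filter on low genes the medians of the chitinases, the terpene synthases and the subtilase domain were −0.15, −0.06 and −0.03. Without WT CT replicate 3 the oxidase median was −0.12 and that of the terpene synthases −0.15. Chitinases break down fungal walls, and the abundant endochitinase A gene Zm00001eb078730 had 848.4, 1434 and 2509 FPKM in *zmccd8* WS, 299.3, 296.5 and 434.2 in *zmccd8* CT, 1931, 1749 and 4680 in WT WS, and 274.6, 295.1 and 256.8 in WT CT (−1.08 ± 0.58). In both genotypes WS replicate 3 was the highest library of this gene. The oxidases make superoxide at the plasma membrane, and all 11 were below 0, of which 1 had an unadjusted p under 0.05: Zm00001eb148780 with 10.2, 7.23 and 8.45 FPKM in *zmccd8* WS, 9.94, 6.805 and 7.75 in *zmccd8* CT, 18.0, 20.4 and 18.1 in WT WS, and 9.80, 11.6 and 6.52 in WT CT (−0.90 ± 0.28). Its response was 0.08 in *zmccd8* and 0.97 in WT. The mean interaction of the oxidases was 1.22 times its spread.

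At the high end were antenna proteins, the replicative MCM helicase, a ribosomal protein domain, the MSP domain of vesicle-associated proteins, MYB-CC factors, adenylate kinases and SNARE proteins. Several of these places rest on 1 library: the MCM median of 0.34 was 0.02 without *zmccd8* CT replicate 2, and without WT CT replicate 3 the ribosomal domain median of 0.32 was 0.03 and the adenylate kinase median of 0.30 was 0.15. Antenna proteins, which bind chlorophyll and are scarce in roots, had a median of 0.68 over 12 genes (0.32 without WT WS replicate 3 and 1.08 without WT WS replicate 1), and photosynthesis genes as a whole 0.32 over 39 (5 higher, 0 lower). The photosynthesis family mean was 0.55, 0.80 and 0.71 in *zmccd8* WS, 1.56, 1.54 and 1.55 in *zmccd8* CT, 1.40, 1.13 and 0.98 in WT WS, and 2.64, 2.11 and 2.5 in WT CT (log2(FPKM + 1)). It was lower in *zmccd8* in both conditions without overlap, by 0.49 under WS and by 0.87 under CT. The median response was −0.65 in *zmccd8* (12 of 39 called lower) and −1.27 in WT (24 called lower). Of all genes 10.6% were called lower in *zmccd8* and 10.8% in WT. The oxygen-evolving enhancer gene Zm00001eb117670 shows this pattern, with 0.0418, 0.0491 and 0 FPKM in *zmccd8* WS, 0.704, 1.21 and 0.763 in *zmccd8* CT, 0.572, 0.438 and 0.336 in WT WS, and 4.61, 4.85 and 2.40 in WT CT (0.87 ± 0.30, adjusted p = 0.5, limma). Its interaction turned to −0.07 with a pseudocount of 0.1 and to −1.57 with limma voom, and the family median was 0.19 and 0.10. The 40 chlorophyll-binding genes of the leaf marker list, 10 of them at 0 in all libraries, summed to 11.1 to 14.1 FPKM in *zmccd8* WS, 18.8 to 25.9 in *zmccd8* CT, 20.6 to 38.5 in WT WS and 44.4 to 107.0 in WT CT, and the part of such cells in these values was not tested.

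Ubiquitin-conjugating enzymes, which carry ubiquitin to proteins bound for degradation, were singled out after their values were seen. Of 60 members 13 were higher and 1 lower at an unadjusted p under 0.05, beside 3.48% and 4.46% of all genes. The median was 0.27, and 15% were below 0, beside 52.5% of all genes. The family mean was 5.0, 5.04 and 4.95 in *zmccd8* WS, 5.11, 5.29 and 5.19 in *zmccd8* CT, 4.88, 4.92 and 4.83 in WT WS, and 5.32, 5.31 and 5.28 in WT CT. Every *zmccd8* library was above every WT library under WS, and under CT the genotypes overlapped by 1 library. The mean interaction of 0.23 was 3.53 times its spread of 0.06. How far the values of this family move with 1 library left out was not computed. E2 36 (Zm00001eb343590) had 22.4, 19.8 and 20.2 FPKM in *zmccd8* WS, 33.6, 37.4 and 39.0 in *zmccd8* CT, 18.2, 17.4 and 14.4 in WT WS, and 48.2, 46.5 and 53.1 in WT CT (0.73 ± 0.17, adjusted p = 0.269, limma). The differences were under 1 on the log2 scale for every member.

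Ribosomal protein genes (433 with that name, a few of them plastid types) had 17 higher and 1 lower, the first near the 3.48% of all genes, and a median of 0.13, and histone and DNA replication genes (111) 5 and 2 and a median of 0.15. The ribosomal mean was 5.78 in WT CT replicate 3 and 5.25 and 5.16 in the other WT CT libraries. Without that library the ribosomal median was −0.04 and the histone median −0.01.

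**Figure D5:**
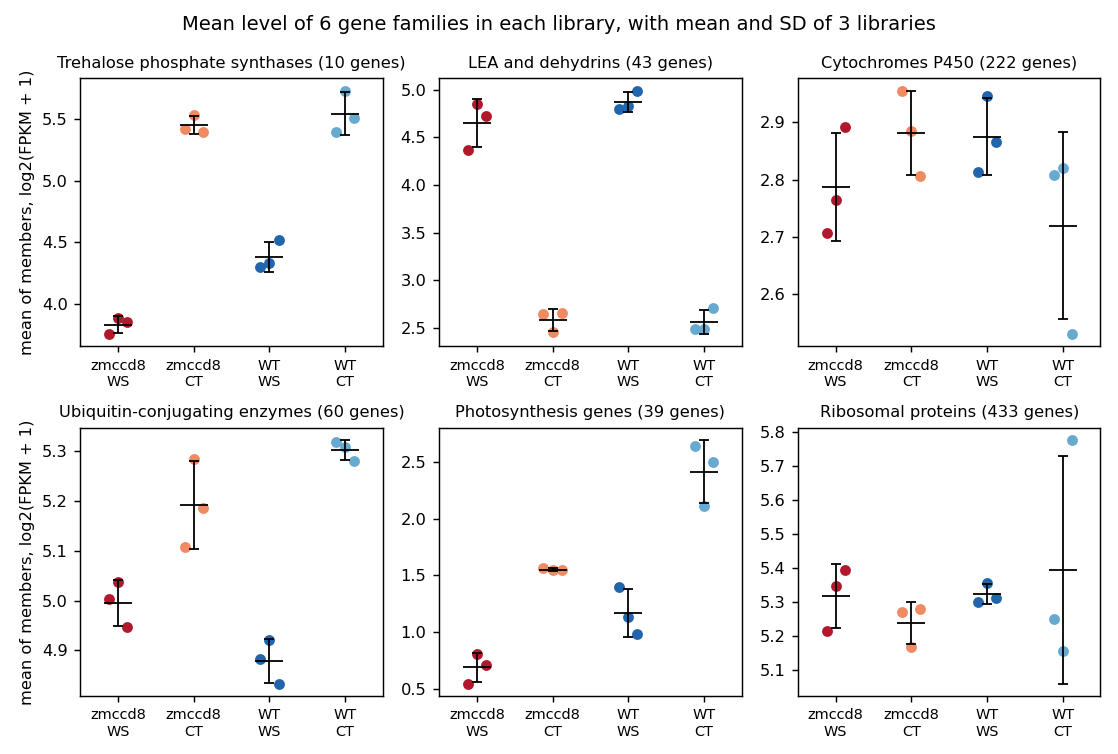
Mean level of the tested members of 6 gene families in each library, as log2(FPKM + 1), with the mean and SD of 3 libraries in black and a scale of its own for each panel. Trehalose phosphate synthases are lower in *zmccd8* under WS and overlap under CT, photosynthesis genes are lower in *zmccd8* in both conditions, and the ribosomal mean of WT CT is spread by replicate 3 at 5.78.

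Of 52 NPF transporters of nitrate and peptides 3 were higher and 5 lower (median −0.14). NPF1.1 (Zm00001eb152400, chromosome 3) had 2.23, 3.32 and 2.54 FPKM in *zmccd8* WS, 0.291, 0.224 and 0.219 in *zmccd8* CT, 0.607, 0.202 and 0.703 in WT WS, and 0.165, 0.0475 and 0 in WT CT (1.08 ± 0.25, adjusted p = 0.274, limma), and limma voom gave −0.06. NPF5.1 (Zm00001eb003170), NPF3.1 (Zm00001eb380020) and NPF6.8 (Zm00001eb245250) had interactions of −0.71 ± 0.24, −0.79 ± 0.27 and −0.77 ± 0.30. Further NPF genes that the study names had smaller values in size. NPF5.6 (Zm00001eb211600), NPF8.2 (Zm00001eb144350) and NPF8.16 (Zm00001eb025880) had −0.06 ± 0.32, 0.02 ± 0.48 and −0.02 ± 0.24. NPF2.1 (Zm00001eb033080), NPF4.2 (Zm00001eb082170) and NPF6.6 (Zm00001eb023600) had −0.22 ± 0.31, −0.52 ± 0.44 and −0.60 ± 0.36. The median of the 17 high-affinity nitrate and ammonium transporters, 0.34, was 0.00 without WT WS replicate 3, and NRT2.5 (Zm00001eb361110) had an interaction of 0.53 ± 0.39. The glutamine synthetase gene Zm00001eb054990, of ammonium assimilation, had 94.9, 133.3 and 126.9 FPKM in *zmccd8* WS, 19.7, 27.6 and 22.8 in *zmccd8* CT, 178.4, 193.3 and 179.3 in WT WS, and 10.8, 18.7 and 21.0 in WT CT (−1.13 ± 0.31, adjusted p = 0.37), with the genotypes apart under WS.

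HB2 (Zm00001eb293010), a phytoglobin that scavenges nitric oxide, was the gene of the study's own targets with the lowest interaction. It had 3.53, 4.53 and 5.91 FPKM in *zmccd8* WS, 6.42, 15.7 and 8.599 in *zmccd8* CT, 13.0, 11.1 and 7.38 in WT WS, and 3.63, 4.93 and 3.73 in WT CT. Under WS every *zmccd8* library was below every WT library and under CT above, so that the response was −0.93 in *zmccd8* and 1.15 in WT (interaction −2.08 ± 0.40, adjusted p = 0.151, limma). It overlaps another feature on the same strand. The asparagine synthetases ASN3 (Zm00001eb013430) and ASN4 (Zm00001eb396990) had interactions of −1.33 ± 0.93 and −1.12 ± 0.54, LBD7 (Zm00001eb051620) −0.86 ± 0.34, CEL19 (Zm00001eb350640) −0.91 ± 0.39, the transporter WBC33 (Zm00001eb305190) −0.81 ± 0.66, the chaperone HSP101 (Zm00001eb293780) −0.39 ± 0.21, ROPGEF (Zm00001eb147940) 0.14 ± 0.24 and ROP5 (Zm00001eb372070) 0.73 ± 0.35, with adjusted p of 0.557 or more. HHT1 (Zm00001eb146710) had an interaction of −0.05 ± 0.30. NAC1, DHR2, NPF6.2, ABI5 and ABI54 did not pass the filter on low values.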

How the data were processed

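Root mRNA of 12 libraries was compared, and the other 6 libraries of the series entered only the filter on low values. The authors trimmed the reads (fastp and Trimmomatic are named), aligned them with HISAT2 2.0.5 to the B73 NAM 5.0 assembly, assembled further transcripts and counted reads with featureCounts. FPKM values per feature were deposited by the authors.

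From the deposited FPKM, log2(FPKM + 1) was fitted with limma 3.58.1 (R 4.3.3) with the variance trend, a mean for each of the 4 groups and 8 residual degrees of freedom, and p-values were adjusted by the Benjamini-Hochberg method over 27530 genes. The log2(FPKM + 1) scale understates the change of low genes. Reads were rebuilt from FPKM and gene length, with the value of 1 read found in each library from its low values, for limma voom, an alternative, and 100.0% of the values then came out within 0.01 of a whole read. Python 3.11.15 was used for summaries, and the fit was tested on simulated data.

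Named were all called genes and the 10 highest and 10 lowest interactions at an unadjusted p of 0.01 or less. Others came from the 3 members of smallest p of the families described and from genes the study names. Members of the 8 highest and 8 lowest domain families were also named. Not every gene of these sets is described in the text. Where a gene was named for a small p or an extreme value, groups of libraries without overlap are not separate support. Genes outside this rule are marked in the text as chosen after their values were seen. The families and the lists were chosen with earlier results of these data known. Correlations of same-numbered deviations were above 0.1 for all 3 replicate numbers between *zmccd8* WS and *zmccd8* CT (0.135, 0.224 and 0.253), and not in the other 5 pairs of groups. The fit has no replicate block, and the blocked values stand beside the called genes. The p-values measure the spread between the deposited libraries. The alternatives were other pseudocounts, filters, scalings, samples, variance models and calls, and each library left out in turn.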

Additional observations from a re-analysis of the deposited data

Results flagged for a closer look

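The limma test of the difference between the water stress responses of *zmccd8* and WT called 6 genes. The difference was −2.194 for polyol transporter 5 (Zm00001eb021140), 2.746 for HOX10 (Zm00001eb145820), 1.789 for RADIALIS-like 3 (Zm00001eb398500), and, for the assembled transcripts of chromosome 3 that start at 144676762, 200027624 and 185090935, 2.029, −2.526 and −2.353. HOX10 and these transcripts were at or near 0 in all 6 *zmccd8* libraries, so that their difference is the WT response with its sign turned, or nearly so. With chromosome 3 left out of the adjustment 0 genes were called (1852 at an unadjusted p under 0.05).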

How the results depend on the processing

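The interaction called 6 genes, and under the alternatives 0 (pseudocount of 0.1, limma voom, chromosome 3 left out), 10 (no filter), 2 (mean of at least 5 FPKM), 17 (fit of all 18 libraries) and 3 (annotated genes only). With the replicate block 2 genes were called, both among the 6, and leaving out each library gave 2 to 7. The WS against CT counts were 2933 in *zmccd8* and 3218 in WT with a mean of at least 5 FPKM, and 10373 and 12163 with the adjusted p alone. Named genes turned direction in 4 cases: with limma voom Zm00001eb084480 (−1.535), Zm00001eb152400 (−0.061), Zm00001eb155620 (0.819) and Zm00001eb117670 (−1.569, and −0.073 with a pseudocount of 0.1). Family medians below 0 numbered 40 of 57, and 32 to 44 with a library left out. Why these values moved was not tested. With 3 libraries a group the median SE of an interaction was 0.272.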
